A study of Homo sapiens with 12 samples.

Results

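The Fc receptors of myeloid cells were followed through RNA-Seq of HL60 cells, as 8 genes chosen by name from the 59251 genes of the count table. They were FCGR1A, FCGR2A, FCGR2B, FCGR3A, FCGR3B, FCAR, FCER1G and FCGRT. HL60 is a human acute myeloid leukemia line of promyelocyte-like cells that does not carry the PML-RARA fusion. The cells were left non-treated or were exposed for 48 h to 1 µM all-trans retinoic acid (ATRA), to palbociclib, an inhibitor of CDK4 and CDK6 (CDK4/6i), at the same 1 µM dose, or to both drugs (CDK4/6i+ATRA). Each of the 4 groups had 3 libraries, named as biological replicates 1 to 3. All groups were the same line, so the libraries stand for repeated cultures of 1 cell line and not for separate donors.

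Fc receptors bind the constant stem of antibodies and so couple antibody-coated targets to phagocytosis, oxidative burst and cell killing. FCGR1A encodes the high-affinity IgG receptor CD64, FCGR2A and FCGR2B encode the activating and the inhibitory form of CD32, and FCGR3A and FCGR3B encode the forms of CD16 of NK cells and macrophages and of neutrophils. FCAR encodes the IgA receptor CD89. FCER1G encodes the common gamma chain, an adaptor with an ITAM (the tyrosine motif that recruits the kinase SYK) that CD64, CD89 and the transmembrane form of CD16 need for signalling, whereas FCGRT encodes the neonatal receptor FcRn, which works inside the cell and returns IgG from endosomes. Resting neutrophils typically carry CD32, CD16 and CD89 and little CD64, which monocytes carry at rest.

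ATRA and CDK4/6i together gave opposite results for the high-affinity receptor and for its signalling adaptor. FCER1G rose from 8.06 ± 1.08 CPM in non-treated cells to 368.5 ± 11.7 CPM with CDK4/6i+ATRA (CPM, the count scaled to the TMM-normalized library size, as mean ± SD, n = 3), while FCGR1A fell from 7.31 ± 0.704 to 1.80 ± 0.448 CPM. FCGR2A rose with CDK4/6i whether ATRA was present or not, and FCGR2B, FCAR and FCGRT rose from very low levels. FCGR3A and FCGR3B stayed at 5 counts or fewer in each of the 12 libraries.

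The 5 FCGR genes and FCER1G lie on the long arm of chromosome 1 and the other two on chromosome 19, by the hg38 exon positions in the table. FCGR1A spans chr1:149782694-149800609 on the plus strand, with 8 exon intervals. FCER1G (chr1:161215295-161219245, plus, 5 exon intervals) lies in the same stretch as FCGR2A (chr1:161505457-161524048, plus), FCGR3A (chr1:161541759-161550737, minus), FCGR3B (chr1:161623196-161631963, minus) and FCGR2B (chr1:161647243-161678654, plus). FCAR is at chr19:54874235-54891420 and FCGRT at chr19:49512661-49526428, both on the plus strand.

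The 250 bases before the annotated start are shown for the genes that moved in different ways, since FCGR1A fell, FCGR2A followed CDK4/6i and FCER1G rose with each drug. The sequences are from RefSeq (GRCh38.p14, plus strand, 5′ to 3′), where 7 of the 8 genes had an entry and FCAR had none. Capitals mark matches on either strand to TTCNNNGAA, the palindromic site of STAT factors, and to GAGGAA, the core of the site of the myeloid factor PU.1, whose reverse complement is TTCCTC.
FCGR1A, chr1:149782444-149782693: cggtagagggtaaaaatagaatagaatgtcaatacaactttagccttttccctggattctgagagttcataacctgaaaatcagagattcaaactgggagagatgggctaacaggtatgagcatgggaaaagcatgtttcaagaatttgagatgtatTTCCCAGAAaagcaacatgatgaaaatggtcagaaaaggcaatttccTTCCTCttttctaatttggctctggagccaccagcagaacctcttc
FCGR2A, chr1:161505207-161505456: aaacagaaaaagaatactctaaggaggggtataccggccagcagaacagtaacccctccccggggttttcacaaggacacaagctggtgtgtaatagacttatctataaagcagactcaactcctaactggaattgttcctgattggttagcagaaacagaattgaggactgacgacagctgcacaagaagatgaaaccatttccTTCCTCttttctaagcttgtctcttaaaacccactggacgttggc
FCER1G, chr1:161215045-161215294: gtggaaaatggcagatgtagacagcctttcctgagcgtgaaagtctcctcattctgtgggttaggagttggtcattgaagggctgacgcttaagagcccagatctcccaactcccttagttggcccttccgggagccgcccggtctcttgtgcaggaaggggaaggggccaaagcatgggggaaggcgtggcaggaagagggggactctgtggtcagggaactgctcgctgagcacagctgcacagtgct

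The FCGR1A stretch held 1 match to TTCNNNGAA, 93 to 85 bases before the start, and 1 to GAGGAA on the minus strand, 46 to 41 bases before it. The FCGR2A stretch held the GAGGAA match alone, at 45 to 40 bases. The longest run shared by these stretches was 20 bases around that match, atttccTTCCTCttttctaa, placed 52 to 33 bases before the FCGR1A start and 51 to 32 bases before the FCGR2A start. The FCER1G stretch held no match to either, nor to TTGCGCAA (a C/EBP palindrome) or to AGGTCA, the repeat unit of the site of retinoic acid receptors, and so none to the direct repeat that contains it. The same search, on both strands, found TTCNNNGAA in 6.57% and GAGGAA in 23.6% of 35116 promoter windows of that length, against 12.1% for AGGTCA. Among the genes not shown, FCGR2B, which rose with both drugs, had 2 annotated starts. The window of start 2 held 2 matches to TTCNNNGAA and 2 to GAGGAA, and that of start 1 held AGGTCA. The TTCNNNGAA match was thus not particular to FCGR1A, the gene that fell. Of the 5 FCGR3A windows 1 held AGGTCA, and those of FCGR3B and FCGRT held none of these motifs. These are matches of letters only, and binding was not measured here.

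Several of these genes have near-identical copies, which bears on how their reads could be placed. Of all 100-base windows within FCGR1A exons, 56.7% occur base for base elsewhere in hg38, as do 23.2% of those in FCGR2A, 24.8% in FCGR2B, 4.26% in FCGR3A and 5.21% in FCGR3B. FCER1G and FCGRT had no repeated window at 50, 100 or 150 bases. For FCAR 100% were repeated, all on alternate contigs, and the table lists it on 12 contigs. Read length, and how reads that match several places were counted, were not given in the sources used here. FCGR1A exons also share 102 bases with H2BC18 and 21 bases with LOC124904411 on the other strand. Those genes had 97 and 38 counts over the 12 libraries, against 1169 for FCGR1A, and whether counting used the strand was not given in the sources used here.

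**Figure D1:**
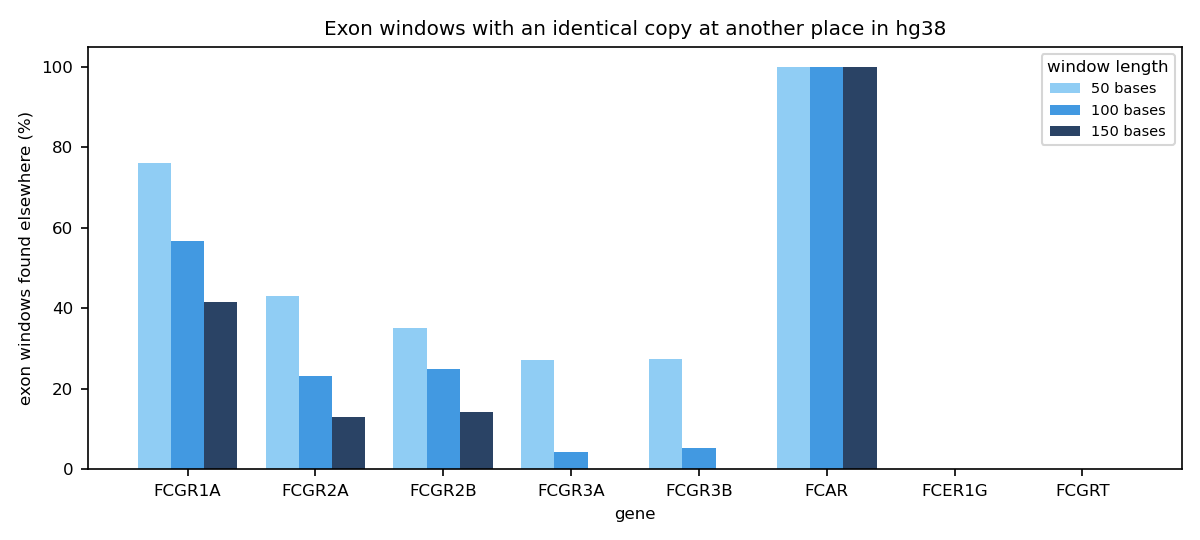
Share of exon windows of each gene (percent, y axis) that have an identical copy at another place in hg38, for windows of 50, 100 and 150 bases (bar colours). FCAR is at 100% at each length, FCGR1A falls from 76.1% to 41.7% with longer windows, and FCER1G and FCGRT are at 0.

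Total counts ranged from 12230923 to 18679544 per library, and the CDK4/6i+ATRA libraries, at 12230923 to 14415276, were the 3 smallest. The floor of 3 counts was therefore 0.156 to 0.275 CPM, which covers counting error only. Genes of promyelocytes marked the non-treated cells, with a summed level of 8947 to 9305 CPM for the list of 12, of which MPO held 6517 CPM on average. The sum was 1507 to 1595 CPM with CDK4/6i+ATRA, where MPO was at 28.0 CPM. Of its 9 tested genes 5 were lower and 3 higher with both drugs, and the myeloid factors SPI1 (PU.1) and CEBPE were at 302 and 170 CPM without treatment and at 855.1 and 285 CPM with both. The list of 11 eosinophil, basophil and mast cell genes summed to 6220 to 6475 CPM in non-treated cells, 604 to 669 with ATRA, 8222 to 8453 with CDK4/6i and 417 to 486 with both drugs, where 9 of 10 tested genes were lower and 1 higher. Most of that sum without treatment was PRG2, a granule protein of eosinophils, at 5857 CPM, against 64.7 CPM with both drugs. ELANE, PRTN3 and AZU1, also defining genes of promyelocytes, had 0 counts in every library. Each is listed on 2 contigs, and 100% of their exon windows were repeated, against 0% for MPO. The neutrophil list of 12 genes summed to 127 to 138 CPM in non-treated cells, 2304 to 2438 with ATRA, 311 to 329 with CDK4/6i and 6882 to 7447 with both drugs, and S100A8 and S100A9 made up most of it (1845 and 5070 CPM with both drugs). Of the 8 tested genes of this list 7 were higher with both drugs and the other was not called. Among its granule genes, CEACAM8, LTF and CAMP were under 0.2 CPM in each group on average, while MMP8 went from 0 to 9.35 CPM and MMP9 from 0.310 to 3.02 CPM with both drugs. The monocyte and macrophage list of 11 genes went from 30.2 to 33.3 CPM to 84.1 to 92.6 CPM, with CD14 at or under 0.157 CPM on average and CD163 at 0 in every drug-treated group. The part of these marker levels in the results below was not tested. In RNA from whole cultures, a change in the share of cells of one type and a change in RNA per cell cannot be told apart.

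Of the 8 genes, 6 passed the filter on low counts and were tested. FCAR had at least 17 counts in each ATRA and CDK4/6i library and did not need the combination to pass. FCGR2B and FCGRT passed only through the groups where they were high. The counts of calls therefore describe these 6 tested genes and are no support for a change in Fc receptors as a group. At an adjusted p under 0.05 (edgeR's quasi-likelihood test, Benjamini-Hochberg over 13318 genes), 5 of 6 were called with ATRA against non-treated cells (4 higher, 1 lower), where 67.6% of all tested genes were called. With CDK4/6i against non-treated cells 4 of 6 were called, all of them higher, against 56.2% of all genes. That count was 2 without non-treated replicate 2, and also 2 without CDK4/6i replicate 3. With CDK4/6i+ATRA 6 of 6 were called (5 higher, 1 lower), against 81.7%. CDK4/6i+ATRA differed from CDK4/6i alone in 5 of 6 (78.6% of all genes) and from ATRA alone in 5 of 6 (69.8%). The interaction, which is the ATRA effect in the presence of CDK4/6i minus the ATRA effect without it on the log2 scale, was called in 3 of 6 (51.4%). Whether 6 genes differ in these shares from the background was not tested. Groups of 3 libraries did not overlap for 70.3% of all genes with ATRA, 60.7% with CDK4/6i and 81.8% with both drugs relative to non-treated cells, nor for 78.9% and 71.9% between both drugs and CDK4/6i or ATRA alone. At 2-fold and above, 5 of 6 passed with CDK4/6i+ATRA compared to non-treated cells, where 45.5% of all genes did, 4 of 6 with ATRA (21.7%) and 2 of 6 with CDK4/6i (11.1%). The comparisons with non-treated cells share the same 3 control libraries.

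**Figure D2:**
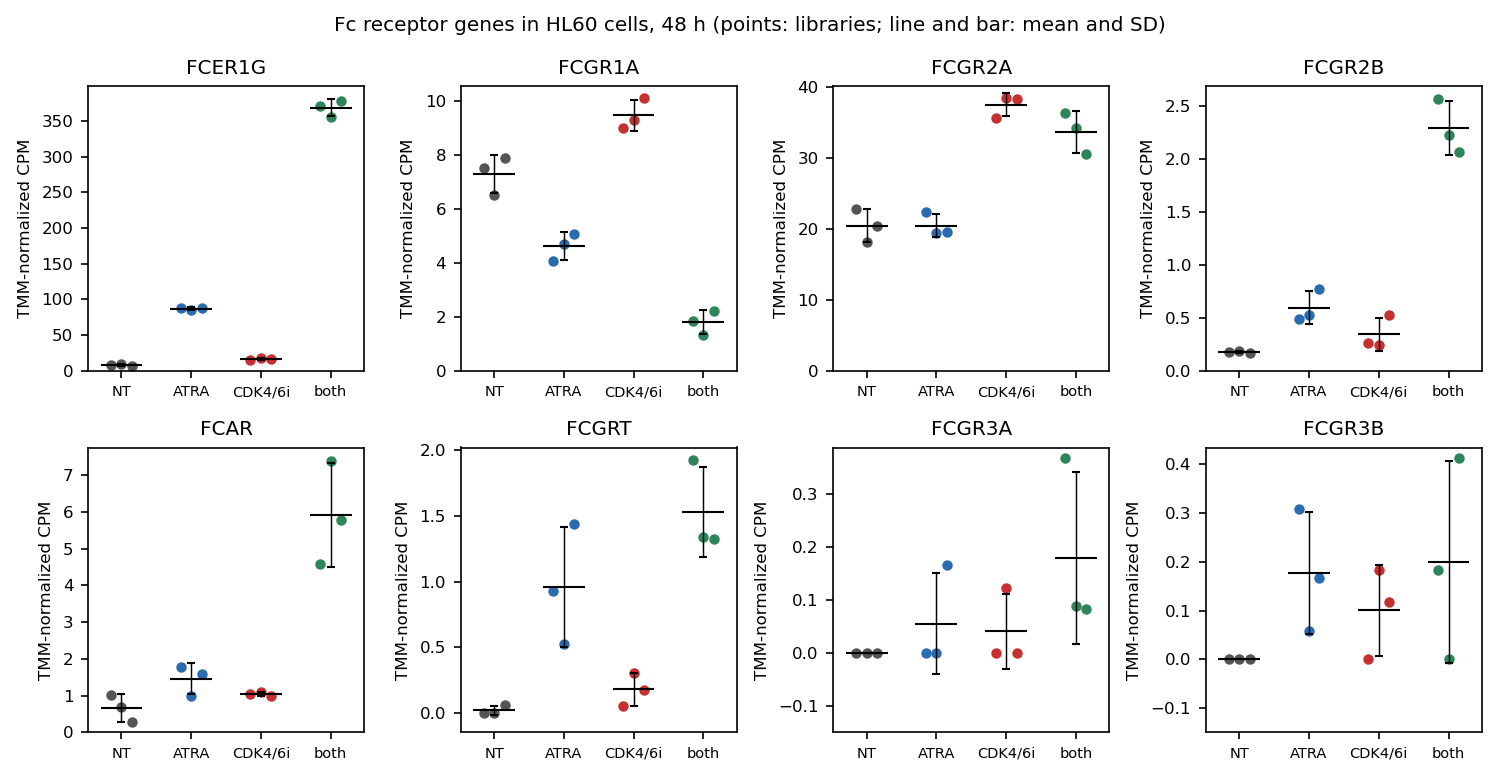
TMM-normalized CPM (y axis, linear, own scale in each panel) of the 8 Fc receptor genes in non-treated (NT), ATRA, CDK4/6i and CDK4/6i+ATRA (both) cells. Points are the 3 libraries of a group, lines and bars the mean and SD. FCER1G, FCGR2B and FCAR are highest with both drugs, FCGR1A is lowest there, and FCGR2A is high in both groups that received CDK4/6i.

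FCER1G, the gamma chain through which CD64 and CD89 signal, rose with each drug and most with both. Its level was 7.69, 9.28 and 7.21 CPM in the non-treated libraries and 15.1, 17.8 and 16.0 CPM with CDK4/6i. It was 88.7, 85.8 and 87.5 CPM with ATRA, and 371.5, 355.6 and 378.4 CPM with CDK4/6i+ATRA. The 4 groups were therefore fully separated, in the order non-treated, CDK4/6i, ATRA and CDK4/6i+ATRA. The log2 fold change was 3.44 (SE 0.0686, adjusted p = 3.2e-40) with ATRA, 1.02 (SE 0.0905, adjusted p = 7.1e-14) with CDK4/6i and 5.52 (SE 0.0612, adjusted p = 1.0e-51) with both drugs, all against non-treated cells and by edgeR. CDK4/6i+ATRA exceeded ATRA alone 4.22-fold (log2 fold change 2.08, adjusted p = 1.4e-39). The interaction was 1.06 (95% interval 0.848 to 1.27, adjusted p = 3.0e-12), so the joint rise was 2.08-fold larger than the product of the single-drug folds. On the linear scale, the single drugs added 79.3 and 8.26 CPM, a sum of 87.5 CPM, and both drugs together added 360.4 CPM. FCER1G overlapped no other gene and had no repeated exon window.

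FCGR1A (CD64) moved the other way. Its level was 7.51, 6.52 and 7.88 CPM without treatment, 4.07, 4.72 and 5.08 CPM with ATRA, 9.02, 9.29 and 10.1 CPM with CDK4/6i, and 1.83, 1.34 and 2.23 CPM with CDK4/6i+ATRA. The 4 groups did not overlap, and the order of levels ran from CDK4/6i down through non-treated and ATRA to CDK4/6i+ATRA. ATRA lowered it by a log2 fold change of -0.66 (SE 0.150, adjusted p = 1.4e-04, edgeR). CDK4/6i raised it by 0.37 (adjusted p = 0.0162), a call that was lost without non-treated replicate 2 (0.30, adjusted p = 0.0948) and without CDK4/6i replicate 3 (0.32, adjusted p = 0.0769). CDK4/6i+ATRA gave -2.01 (SE 0.199, adjusted p = 5.6e-13), a level 4.03-fold lower than in non-treated cells. CDK4/6i thus went with a higher level when given alone, and with a level lower by 1.35 on the log2 scale when added to ATRA (-1.35, adjusted p = 2.3e-07). The interaction was -1.72 (95% interval -2.23 to -1.22, adjusted p = 9.5e-08), and the product of the single-drug folds would have placed the combination at 5.999 CPM.

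The copies of FCGR1A did not follow it in one way. FCGR1CP, a pseudogene, fell from 1.65 ± 0.117 CPM in non-treated cells to 0.580 ± 0.136 with ATRA and 0.524 ± 0.0608 with both drugs, and rose to 3.10 ± 0.198 with CDK4/6i. Its log2 fold changes were -1.49, -1.64 and 0.91 (adjusted p = 1.2e-04, 1.3e-04 and 0.00214, edgeR). FCGR1BP had 16, 23 and 44 counts with both drugs and 27, 25 and 32 without treatment. These 2 groups overlapped, and the log2 fold change of FCGR1BP between them, 0.53 (95% interval -0.05 to 1.11, adjusted p = 0.0860), was not called. With CDK4/6i FCGR1BP was at 2.38 ± 0.178 CPM (SD, n = 3), each library above every non-treated and ATRA library, and its log2 fold change over non-treated cells of 0.51 (95% interval -0.03 to 1.05, adjusted p = 0.106) was not called either. FCGR1A had 4.16 to 4.63 counts for each FCGR1BP count in non-treated libraries, and 0.614 to 1.25 with CDK4/6i+ATRA. When the counts of FCGR1A, FCGR1BP and FCGR1CP were added before testing, the level went from 10.6 ± 0.746 CPM without treatment to 6.90 ± 0.470 with ATRA, 14.96 ± 0.820 with CDK4/6i and 4.71 ± 1.51 with both drugs. The sum fell by a log2 fold change of -1.16 with both drugs (SE 0.151, adjusted p = 1.7e-09), a fall of a smaller size than that of FCGR1A alone (-2.01). The interaction of the sum was -1.03 (adjusted p = 1.8e-05).

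FCGR2A (activating CD32) followed CDK4/6i. Its level was 22.8, 18.2 and 20.4 CPM without treatment and 22.3, 19.5 and 19.6 CPM with ATRA. It was 35.6, 38.4 and 38.3 CPM with CDK4/6i and 36.3, 34.1 and 30.5 CPM with CDK4/6i+ATRA. The groups with CDK4/6i lay above those without it, and within each of these pairs the groups overlapped. CDK4/6i raised it by a log2 fold change of 0.87 (SE 0.0774, adjusted p = 7.4e-14, edgeR) without ATRA and 0.72 (SE 0.0829, adjusted p = 9.7e-11) with it. The ATRA effect was -0.00 (95% interval -0.17 to 0.17, adjusted p = 0.971). In the presence of CDK4/6i the ATRA effect was -0.16 (95% interval -0.31 to -0.00, adjusted p = 0.0599). That last value was called under 5 of the alternatives, including the fits without CDK4/6i replicate 1 (-0.18, adjusted p = 0.0465) and without CDK4/6i+ATRA replicate 1 (-0.21, adjusted p = 0.0207). The interaction was -0.15 (95% interval -0.38 to 0.08, adjusted p = 0.276). With scaling by library size alone, which moved the median interaction of all genes from -0.02 to -0.34, that of FCGR2A was -0.47 (adjusted p = 0.00123).

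**Figure D3:**
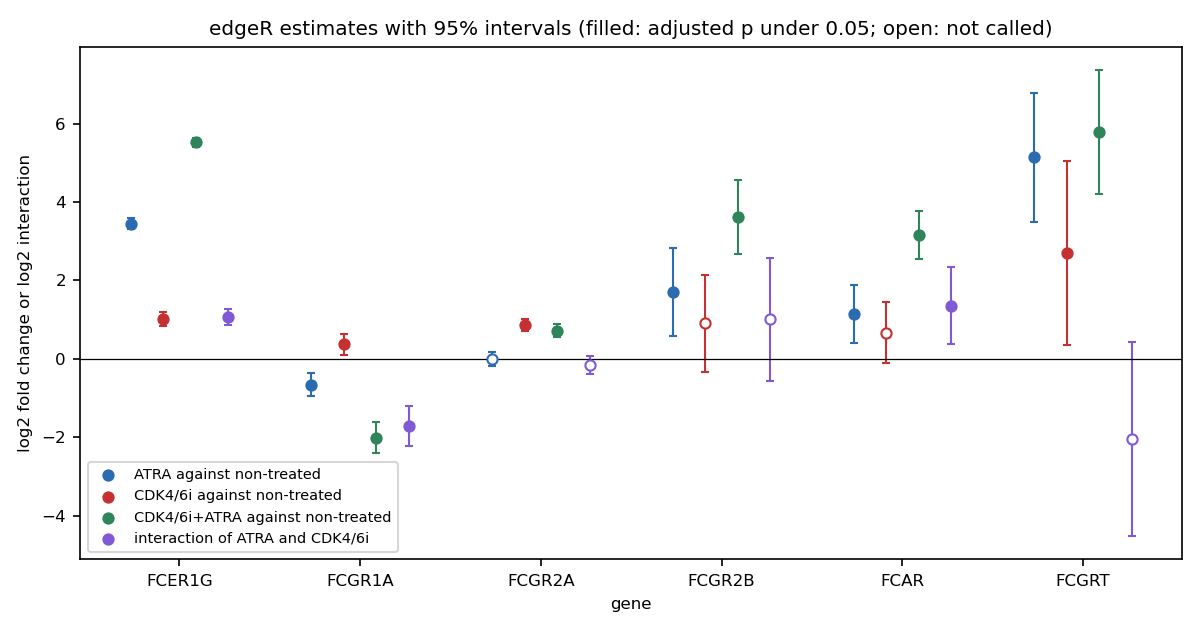
Log2 fold change or log2 interaction (y axis) of the 6 tested genes, with 95% intervals. Colours are the 3 comparisons with non-treated cells and the interaction, and open points did not pass an adjusted p of 0.05. The interaction of FCGR1A is below 0, those of FCER1G and FCAR are above 0, and the interval of FCGRT is the widest.

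FCGR2B, the inhibitory receptor with an ITIM (the tyrosine motif that recruits phosphatases), was nearly silent at the start. It had 3 counts in each non-treated library, 8, 9 and 14 with ATRA, 5, 4 and 9 with CDK4/6i, and 28, 25 and 25 with CDK4/6i+ATRA. The combination libraries lay above all the others, and the ATRA and CDK4/6i libraries overlapped. The ratio of CPM-scaled counts of CDK4/6i+ATRA to non-treated cells was 12.7 (95% counting interval 6.38 to 28.9), and that of ATRA to non-treated cells 3.37 (1.57 to 8.04). Both were called (adjusted p = 1.2e-09 and 0.00602, edgeR). CDK4/6i alone was not (ratio 1.91, counting interval 0.814 to 4.82, adjusted p = 0.215), and neither was the interaction (1.01, 95% interval -0.57 to 2.58, adjusted p = 0.295). FCGR2C, the third gene of this cluster, had 9 counts or fewer in each library. Added together, FCGR2A, FCGR2B and FCGR2C followed FCGR2A, with 20.6 ± 2.32 CPM without treatment and 36.2 ± 3.10 with both drugs.

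FCAR, the IgA receptor, had 17, 11 and 5 counts without treatment, 29, 17 and 29 with ATRA, 20, 18 and 17 with CDK4/6i and 50, 83 and 70 with CDK4/6i+ATRA. In CPM these were 0.664 ± 0.371, 1.46 ± 0.417, 1.04 ± 0.0529 and 5.92 ± 1.41. Only the combination was set apart from the other groups, which overlapped each other in part. Its log2 fold change was 3.16 against non-treated cells (SE 0.308, adjusted p = 3.6e-13, edgeR), 2.02 against ATRA (adjusted p = 3.8e-09) and 2.50 against CDK4/6i (adjusted p = 3.4e-11). ATRA alone gave 1.14 (adjusted p = 0.00519), which was 0.76 (adjusted p = 0.0725) without non-treated replicate 3. CDK4/6i alone gave 0.66 (95% interval -0.12 to 1.44, adjusted p = 0.143), which was 1.12 (adjusted p = 0.0367) without non-treated replicate 1. The interaction of 1.36 (95% interval 0.377 to 2.34, adjusted p = 0.0171) was not called without non-treated replicate 1 (0.90, adjusted p = 0.199), ATRA replicate 2 (1.14, adjusted p = 0.0524) or CDK4/6i+ATRA replicate 2 (1.17, adjusted p = 0.0527), nor with scaling by library size alone (1.04, adjusted p = 0.0683).

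FCGRT (FcRn) went with ATRA. It had 0, 0 and 1 counts in non-treated libraries and 1, 5 and 3 with CDK4/6i, against 15, 9 and 26 with ATRA and 21, 15 and 16 with CDK4/6i+ATRA. The groups with ATRA lay above those without it and overlapped each other. Against non-treated cells the ratio was 48.9 with ATRA (counting interval 8.38 to 1969) and 76.5 with both drugs (13.1 to 3078), and both were called (adjusted p = 3.1e-07 and 4.4e-09, edgeR). These ratios rest on 1 count, which came from non-treated replicate 3. The log2 fold change with ATRA was 5.13 with that library and 6.92 without it, and with both drugs 5.78 and 7.57. CDK4/6i alone passed the threshold narrowly (adjusted p = 0.0458) and lost the call in 6 alternatives, among them the fits without non-treated replicate 1 (adjusted p = 0.133) or 2 (0.126) and without CDK4/6i replicate 2 (0.199) or 3 (0.0747). Adding CDK4/6i to ATRA gave a log2 fold change of 0.65 (95% interval -0.16 to 1.46, adjusted p = 0.146), which was 1.07 (adjusted p = 0.0397) without ATRA replicate 3.

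FCGR3A and FCGR3B (CD16) were close to undetected, although FCGR3B defines mature neutrophils. FCGR3A had 0 counts in all non-treated libraries, 0, 0 and 3 with ATRA, 0, 2 and 0 with CDK4/6i, and 4, 1 and 1 with CDK4/6i+ATRA. FCGR3B had 0 counts in all non-treated libraries, 5, 1 and 3 with ATRA, 0, 3 and 2 with CDK4/6i and 2, 0 and 5 with both drugs. Group totals did not exceed 9 counts, and neither gene passed the filter. Without the filter (28097 genes), edgeR called FCGR3B with ATRA (adjusted p = 0.0253) and with CDK4/6i+ATRA (adjusted p = 0.0192) against non-treated cells. FCGR3A was not called (adjusted p = 0.286 and 0.0504). No fold is given, since the groups average at or under the floor of 3 counts.

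Per kb of exon, the order of the receptors changed between the groups. In non-treated cells FCER1G was at 13.7 ± 1.84 CPM per kb, FCGR2A at 5.32 ± 0.598 and FCGR1A at 2.36 ± 0.228, with FCAR at 0.240 ± 0.134 and FCGR2B at 0.0747 ± 0.00402 far below. With CDK4/6i+ATRA, FCER1G was at 625 ± 19.8 CPM per kb, followed by FCGR2A at 8.76 ± 0.764, FCAR at 2.14 ± 0.511, FCGR2B at 0.954 ± 0.106, FCGRT at 0.832 ± 0.187 and FCGR1A at 0.582 ± 0.145. The place of FCGR1A in this order rests on the reads assigned to it, and 56.7% of its 100-base exon windows are repeated, and with FCGR1BP and FCGR1CP added its level with both drugs was 4.71 CPM in place of 1.80 CPM. The place of FCAR carries the same limit, since 100% of its exon windows are repeated on alternate contigs, as are those of ELANE, PRTN3 and AZU1, which had 0 counts. FCGR2B and FCGRT did not differ beyond their spread, and the highest FCGR1A library reached the lowest FCGRT library. The ratio of the adaptor FCER1G to FCGR1A per kb, taken within each library, was 4.79 to 7.46 in non-treated cells and 8.30 to 10.0 with CDK4/6i. It was 90.2 to 114 with ATRA and 888 to 1393 with CDK4/6i+ATRA. The ratio of activating FCGR2A to inhibitory FCGR2B per kb was 60.4 to 78.9 in non-treated cells, 45.4 to 98.2 with CDK4/6i, 15.8 to 28.3 with ATRA and 8.83 to 9.56 with CDK4/6i+ATRA. This ratio rests on 3 FCGR2B counts in each non-treated library.

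**Figure D4:**
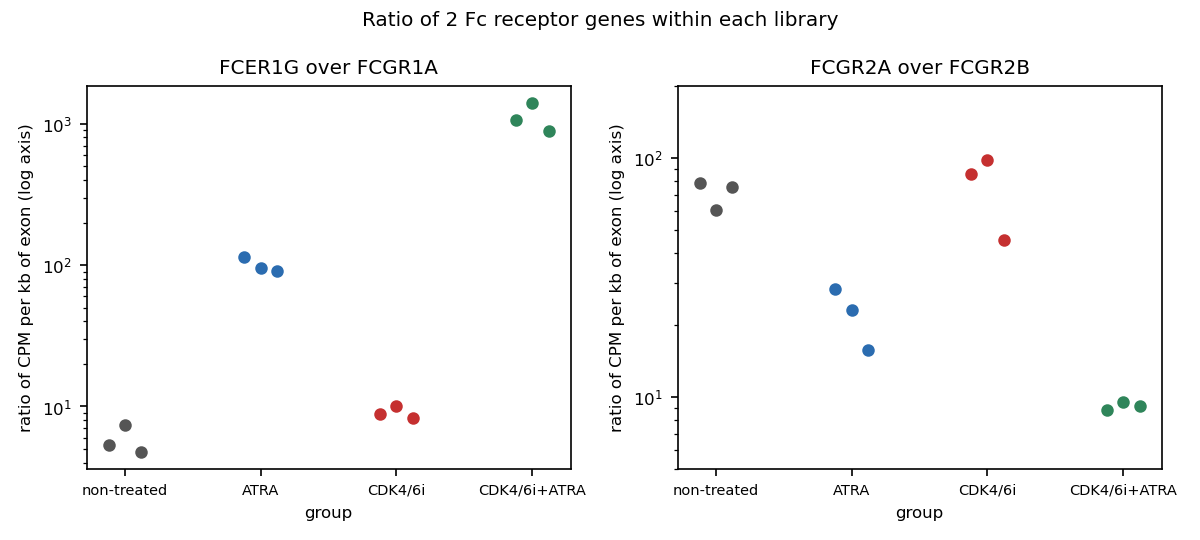
Ratio of CPM per kb of exon of FCER1G to FCGR1A and of FCGR2A to FCGR2B (y axes, log scale) in each of the 12 libraries, by group. The FCER1G to FCGR1A ratio is 888 to 1393 with CDK4/6i+ATRA and 4.79 to 7.46 without treatment, while the FCGR2A to FCGR2B ratio is lowest with CDK4/6i+ATRA.

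Genes through which Fc receptors signal were more often called higher than lower with the combination. Of 49 tested genes of Fc receptor signalling, 37 were higher and 10 lower with CDK4/6i+ATRA compared to non-treated cells, where 41.0% of all tested genes were higher and 40.7% lower. With ATRA 33 were higher and 8 lower (32.1% and 35.5% of all genes), and with CDK4/6i 20 were higher and 10 lower (28.3% and 27.9%). With scaling by library size alone, 33 of these genes were higher and 12 lower with both drugs, while over all genes the 5461 higher and 5424 lower calls became 4376 and 6431. Src-family kinases, which phosphorylate the ITAM, were among the rises. FGR went from 6.54 ± 0.583 to 1182 ± 24.02 CPM (log2 fold change 7.49) and LYN from 35.7 ± 1.39 to 332 ± 10.9 (3.22). PIK3CG, a catalytic subunit of PI3-kinase, went from 121 ± 4.35 to 1634 ± 45.2 CPM (3.75). With ATRA alone FGR was already at 928 ± 19.6 CPM, LYN at 201 ± 4.71 and PIK3CG at 945.5 ± 19.7. The interaction was -0.71 for FGR (adjusted p = 7.6e-08, edgeR), 0.19 for LYN (adjusted p = 0.0112) and 0.58 for PIK3CG (adjusted p = 4.8e-12). SYK, the kinase that docks on the phosphorylated gamma chain, fell from 268 ± 8.22 to 162 ± 5.44 CPM (-0.73, adjusted p = 2.4e-21, edgeR), with an interaction of -0.52 (adjusted p = 1.0e-10). PIK3R2 (a regulatory subunit of PI3-kinase), the kinase TEC and the phospholipase PLA2G4A also fell, by -0.998, -0.84 and -0.62 on the log2 scale.

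On the inhibitory side, 18 of 24 tested receptors and phosphatases were higher and 5 lower with CDK4/6i+ATRA, beside 41.0% and 40.7% of all tested genes. With ATRA alone 20 were higher and 3 lower, beside 32.1% and 35.5%. PTPN6 (SHP-1), a phosphatase recruited by ITIMs, went from 218 ± 5.26 to 545 ± 30.0 CPM (log2 fold change 1.32, adjusted p = 2.8e-33, edgeR). INPP5D (SHIP-1), the lipid phosphatase through which FCGR2B acts, went from 287 ± 3.94 to 422 ± 7.40 CPM (0.56, adjusted p = 3.0e-19). CD300A rose from 5.29 ± 1.46 to 446 ± 6.91 CPM, the adaptor DOK2 from 6.58 ± 0.623 to 196 ± 7.50 and CLEC4A from 0.137 ± 0.0832 to 24.4 ± 1.15. CEACAM1 rose from 0.120 ± 0.208 to 93.4 ± 3.27 CPM and was higher still with ATRA alone, at 110 ± 3.77. Its non-treated level came from replicate 1 alone, and the log2 fold change with both drugs was 9.52 with that library and 13.51 without it, where the remaining non-treated counts are 0. LAIR1, PECAM1, CLEC12A and PTPN11 fell, by -1.09, -0.69, -0.43 and -0.42 on the log2 scale. LAIR1 was higher with ATRA alone (13.3 ± 1.01 CPM against 6.93 ± 0.559) and lower with both drugs (3.24 ± 0.201), with an interaction of -2.23 (adjusted p = 1.2e-13).

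FCER1G was not the only ITAM adaptor to rise. TYROBP (DAP12), its counterpart for TREM and other receptors, was at 16.6 ± 0.900 CPM without treatment, 72.5 ± 0.776 with ATRA, 51.2 ± 2.18 with CDK4/6i and 253 ± 6.91 with both drugs. Its log2 fold change with both was 3.93 (adjusted p = 5.8e-48, edgeR) and its interaction 0.18 (adjusted p = 0.0436), against 1.06 for FCER1G; the difference between these interactions was not tested. Among 14 tested receptors and adaptors of the ITAM type other than Fc receptors, 10 were higher and 1 lower with CDK4/6i+ATRA (41.0% and 40.7% of all tested genes), and 11 were higher and 2 lower with ATRA alone (32.1% and 35.5%). CD300LB went from 4.81 ± 1.07 to 635 ± 11.5 CPM, CLEC5A from 29.9 ± 2.86 to 265 ± 7.14 and TREM1 from 0.263 ± 0.153 to 27.2 ± 3.03. Of 30 phagocytic and engulfment genes, 25 were higher and 4 lower with both drugs, and 23 were higher and 5 lower with ATRA alone, beside the same shares of all genes. The integrin ITGAX rose from 0.853 ± 0.0635 to 138 ± 9.13 CPM and MERTK, a receptor for apoptotic cells, from 0.0409 ± 0.0355 to 132 ± 2.63. CD36 was at 0 counts in all non-treated libraries and at 26.1 ± 1.84 CPM with both drugs. The scavenger receptor SCARB1 fell from 114 ± 4.29 to 9.86 ± 0.595 CPM, ELMO1 from 125 ± 3.98 to 84.1 ± 2.00 and LAMP1 from 495 ± 8.65 to 409 ± 11.1.

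**Figure D5:**
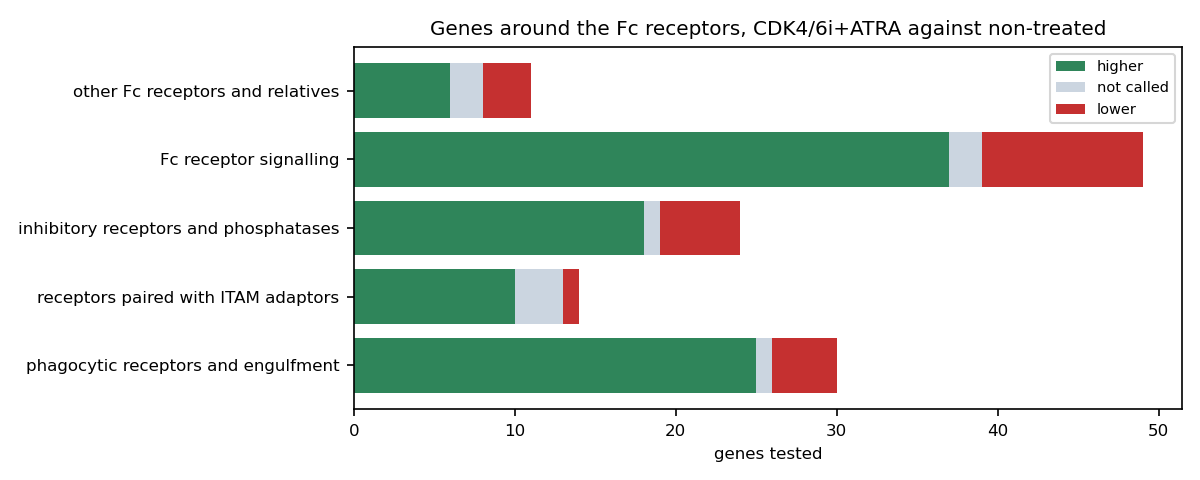
Number of tested genes (x axis) in 5 lists of genes around the Fc receptors that were higher, not called or lower with CDK4/6i+ATRA compared to non-treated cells (adjusted p under 0.05). Higher calls outnumber lower calls in each list, for example 37 against 10 in Fc receptor signalling, beside 41.0% and 40.7% of all tested genes.

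Of 11 other tested Fc-binding proteins and relatives, 6 were higher and 3 lower with CDK4/6i+ATRA, a share close to the 81.7% of all tested genes called in either direction. FCMR, the IgM receptor, went from 0.501 ± 0.448 to 33.8 ± 1.71 CPM and was at 15.3 ± 1.74 with ATRA alone. Its log2 fold change with both drugs was 6.01, and 7.06 without non-treated replicate 3. TRIM21, the cytosolic antibody receptor, rose from 32.8 ± 1.91 to 78.4 ± 2.61 CPM. B2M, the light chain that FcRn shares with class I molecules, rose from 145 ± 2.55 to 240 ± 6.42 CPM (log2 fold change 0.72), far less than FCGRT but from a far higher level. FCRL1, a B-cell member of the family, was higher with ATRA (14.7 ± 0.871 CPM against 8.39 ± 1.23) and lower with both drugs (6.56 ± 0.447), with an interaction of -1.11 (adjusted p = 1.1e-06, edgeR). Its fall with both drugs, -0.36 on the log2 scale (adjusted p = 0.0187), was lost when non-treated replicate 3 was left out (-0.23, adjusted p = 0.162), as it was for CDK4/6i+ATRA replicate 3 (-0.32, adjusted p = 0.0660).

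Over the 12 libraries, the genes whose log2(CPM + 0.5) tracked each receptor most closely were sought among 9297 genes of at least 5 CPM on average. For FCER1G they were DUSP6 (Pearson r = 0.999), JAK1 (0.998) and CLIP1 (0.998). DUSP6, a phosphatase of ERK, was at 42.3, 164, 63.6 and 353 CPM in non-treated, ATRA, CDK4/6i and CDK4/6i+ATRA cells. For FCGR1A they were DGLUCY (0.995), SETDB2 (0.989) and ZNF770 (0.987), and for FCGR2A ADAM8 (0.977), PNRC1 (0.976) and IDUA (0.973). ADAM8 was at 26.2, 25.5, 74.4 and 73.6 CPM in the same order of groups, high with CDK4/6i as FCGR2A was. For the 3 receptors of low counts they were MAU2, NCOA1 and RNF111 (FCGR2B), CHIC2, RAB1A and TSC22D4 (FCAR), and RNF103, IFFO1 and EPC2 (FCGRT). Among the receptors themselves, r was -0.92 between FCER1G and FCGR1A and 0.24 between FCER1G and FCGR2A. These values describe 12 libraries in 4 groups, which share their drugs and carry no test.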

How the data were processed

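RNA-Seq covered 12 libraries of HL60 cells. The authors prepared them with a directional kit, aligned the reads with STAR 2.7.11a to hg38 under NCBI RefSeq and deposited raw counts per gene, which are whole numbers without normalization. The submitters' processing notes also list Trimmomatic 0.33. The paper names RSEM for counting, while the table has the layout of featureCounts. Groups came from the labels.

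Genes were filtered with filterByExpr (13318 kept), scaled with TMM and tested with the quasi-likelihood test of edgeR 4.0.16 (R 4.3.3) in 1 model of the 4 groups, with Benjamini-Hochberg adjustment over all tested genes, a threshold of 0.05 and 8 residual degrees of freedom. Exact two-sided permutation tests of 3 against 3 libraries cannot go below 0.1 and were not used for calls. Counting intervals are 95% and cover counting error only. Levels per kb used the exon bases on the primary chromosome. The model was tested on simulated data.

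The members and gene lists were chosen with earlier results of these data known. The genes named are the 8 members and 3 near copies, up to 4 called higher and 4 lower of each list with the largest change at 5 CPM or more, the 3 genes most like each tested member, and SYK, PTPN6, INPP5D, TYROBP and B2M. Some genes that this rule names are not reported here. DESeq2 1.42.0, other scalings and filters, a replicate block, only the groups compared, sums over copies and leaving out each library were the alternatives.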

Additional observations from a re-analysis of the deposited data

Results flagged for a closer look

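For 3 of the 6 tested receptors, the effect of ATRA differed between cells with and without CDK4/6i, by the interaction term of edgeR with adjustment over 13318 genes, of which 51.4% passed. For FCGR1A the interaction was -1.72 on the log2 scale (SE 0.253, adjusted p = 9.5e-08). ATRA changed it by -0.66 without CDK4/6i and by -2.38 with it, and all 3 CDK4/6i+ATRA libraries were below all 3 ATRA libraries. With the near-identical FCGR1BP and FCGR1CP added, the interaction was -1.03 (adjusted p = 1.8e-05). For FCER1G the interaction was 1.06 (SE 0.105, adjusted p = 3.0e-12), from ATRA effects of 3.44 and 4.50. For FCAR it was 1.36 (SE 0.487, adjusted p = 0.0171), from ATRA effects of 1.14 and 2.50, and this call was lost without non-treated replicate 1 (0.90, adjusted p = 0.199), ATRA replicate 2 (1.14, adjusted p = 0.0524) or CDK4/6i+ATRA replicate 2 (1.17, adjusted p = 0.0527).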

How the results depend on the processing

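Among the refitted log2 fold changes of the 6 tested receptors, 654 kept their side of the threshold, 14 lost their call, 9 gained one and 1 called value changed sign. The counts of all genes called stayed within 1.5 times in all 113 refits. Requiring 10 counts or more per library removed FCGR2B, FCAR and FCGRT and left 2 receptors called with ATRA and 3 for CDK4/6i+ATRA compared to non-treated cells, 2 with CDK4/6i+ATRA against CDK4/6i and 3 against ATRA. Leaving out single libraries gave 2 to 4 receptors called with CDK4/6i. The called log2 fold change that changed sign was FCGR2B with CDK4/6i+ATRA against CDK4/6i, at -0.0681 (adjusted p = 0.413) when FCGR2A, FCGR2B and FCGR2C were added, a sum that FCGR2A dominates. Among values that were not called, that of FCGR2A with ATRA lay near 0 and took either sign, from -0.0786 to 0.0794 over its refits, and the FCGR2B interaction was -0.111 (adjusted p = 0.435) for the same sum. Scaling by library size alone moved the median of all genes for CDK4/6i+ATRA compared to non-treated cells from 0.02 to -0.25. The replicate numbers did not pair the libraries. Deviations of same-numbered libraries correlated at -0.152 to 0.0912, and 2 of 12 libraries correlated best with their own number. With the replicate block, 5 receptors were called with ATRA, 4 with CDK4/6i and 6 with both drugs, 5 against CDK4/6i, 5 against ATRA and 3 for the interaction, as without it. Depth limits FCGR2B, FCAR, FCGRT, FCGR3A and FCGR3B, with 9 counts or fewer per group in the lowest groups of 4 of these.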
